A study of Danio rerio with 184 samples.

Results

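Wild-type lateral line hair cells of zebrafish larvae in which the transcript of the homeobox gene emx2 was counted are set here against wild-type hair cells in which it was not. A cell counted as emx2-positive with 1 or more unique molecular identifiers (UMIs, each standing for 1 captured transcript) of emx2, listed as EMX2 (ENSDARG00000039701), and as emx2-negative with 0. Among wild-type labelled cells with at least 1000 UMIs there were 36 emx2-positive and 54 emx2-negative cells, together 90 of the 184 cells in the series. The groups were chosen by the measured emx2 count itself, so its difference between them is a description and not a result.

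Both groups carry the genotype label Tg[myo6b:actb1-EGFP]_wild-type, at 6 days post fertilization. The transgene puts a green fluorescent actin under control of the hair cell gene myo6b, larval trunks were dissociated, and fluorescent cells were sorted into plates for mcSCRB-seq, a method that counts the 3' ends of transcripts. The remaining cells carry the same transgene and the label Tg[myo6b:actb1-EGFP]_Emx2-mutant. Of them 39 were emx2-positive and 53 emx2-negative, and they played no part in the size rule. The gene lists were chosen with earlier results of these data known, so the mutant-labelled values of list genes may not be independent of that choice. A cell that did not make enough myo6b-driven protein to fluoresce would not have been sorted. The labels give neither animals nor pools, so the wild-type cells together count as 1 sample: cells are not replicates, no p-value can be given, and the 95% intervals of ratios, levels and shares below cover counting error only.

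Emx2 is known for setting hair-bundle orientation. In a neuromast, the small sensory patch of the lateral line, sister hair cells point their bundles in opposite directions, and the protein is found in the cells of a single direction. Notch signalling between the sisters, in which Delta and Jagged ligands of a cell activate Notch receptors on its neighbour and switch on her and hey repressor genes there, is a known part of how the sisters come to differ, and the series title names Notch together with Emx2. Which direction a sorted cell had pointed is not recorded, so the emx2 count is the only guide to its identity here.

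Abundant hair cell genes were detected in the wild-type cells on both sides of the split. The calcium buffer genes pvalb8, s100s and s100t and an otoferlin gene of synaptic vesicle release, OTOF (ENSDARG00000020581), each had a UMI in all 36 emx2-positive and all 54 emx2-negative cells. The transcription factor gene gfi1aa had one in 29 of 36 and 42 of 54 cells, and the transduction channel gene TMC2 (ENSDARG00000030311) in 25 and 35. Other hair cell genes were sparser. A second OTOF gene was seen in 15 and 18 cells, a second TMC2 gene in 8 and 19, and POU4F3 in 12 and 12. CDH23 had 2 and 3 UMIs, LHFPL5 3 and 1, and cacna1da 1 and 7. Cell barcodes were all different, with 0 shared between samples. Some genes that define other cell types were near absent. TP63, of the epidermis list, and mbpa had 0 UMIs on both sides, and the lysozyme gene lyz had 1 and 0. The pigment and endothelium list gathered 3 and 9 UMIs over 6 genes. Other genes of the epidermis list and genes of muscle were present. The keratin gene krt5 was seen in 35 of 36 positive and all 54 negative cells, and krt4 in 11 and 14. The muscle actin gene actc1b was seen in 18 and 20 cells. The neuronal gene gap43 had 10 UMIs in 7 positive cells and 2 UMIs in 2 negative cells. The part of such RNA in the differences below was not tested. No symbol of the erythroid list matched a row of the table. For leukocytes 1 of 16 symbols matched, for neuron and glia 6 of 17, and for pigment and endothelium 6 of 15. Most genes of these lists could therefore not be looked up.

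Detection of emx2 was sparse, and it followed depth. The 36 positive cells held 45 emx2 UMIs, of which 29 cells had 1 UMI, 5 had 2 and 2 had 3. They were 17 of 46 cells on plate 2 (36.96%, 23.2 to 52.5) and 19 of 44 on plate 4 (43.2%, 28.3 to 58.97), taking the first digit of a well's code for its plate, which no label spells out. In CPM, counts scaled to a common library total, and over all wild-type cells, emx2 stood at 52.7 CPM (31.7 to 82.2) on plate 2 and 147 CPM (96.1 to 216) on plate 4. Plate 4 thus had the higher emx2 level although its cells were the shallower ones.

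With the cells of a plate sorted by depth into 3 classes, the share of positive cells on plate 2 was 25% in the shallowest class, 33.3% in the middle and 53.3% in the deepest. The shares on plate 4 were 26.7%, 46.7% and 57.1%, so on both plates a deeper cell was more often counted as positive. The cells nearest the depth limit were 2 wild-type cells left out at 712 and 866 UMIs, both with 0 emx2 UMIs, and 2 kept at 1576 and 1952 UMIs, both with 1.

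For scale, a single emx2 level in every cell of a plate, with Poisson counting at each cell's depth, corresponds to 33.6 positive cells, of which 8.78 would hold 2 or more UMIs. The data had 36 and 7. Of 576 other genes with 35 to 55 UMIs in these cells, the median gene was seen in 24 cells (range 12 to 38), so emx2 was spread over more cells than most genes of its abundance. In the mutant-labelled cells the same calculation gives 59.99 positive cells, against 39 seen. It gives 28.5 cells with 2 or more UMIs, against 21 seen, and 11.1 cells with 3 or more, against 13 seen. There the emx2 UMIs, 105 in all, were gathered in fewer cells than 1 shared level would give, while in wild type the count of positive cells lay close to it. An emx2-negative wild-type cell is therefore a cell in which emx2 was not detectable at its depth, not one shown to lack it.

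**Figure D1:**
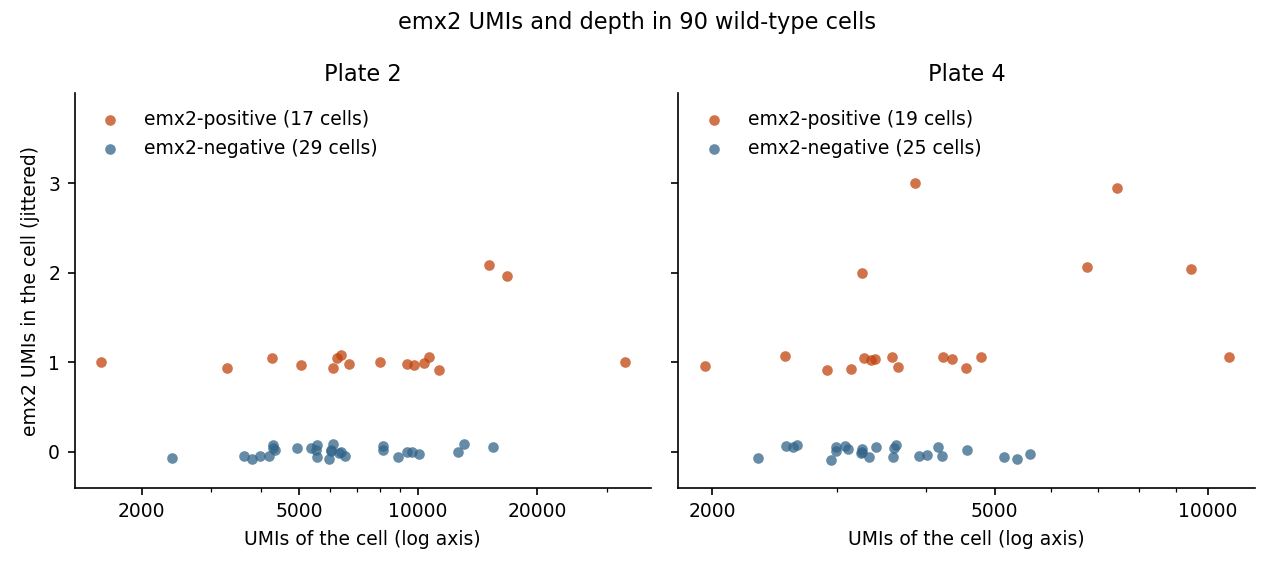
Number of emx2 UMIs in each of the 90 wild-type cells (vertical axis, jittered) against all UMIs of the cell (horizontal, log axis), with plate 2 on the left and plate 4 on the right. Most positive cells hold a single UMI, and the 17 and 19 positive cells overlap the 29 and 25 negative cells in depth.

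The groups differed in depth and in a few broad cell measures. On plate 2, emx2-positive cells had a median of 7997 UMIs (1576 to 33325) and emx2-negative cells 6007 (2379 to 15428). On plate 4 the medians were 3660 (1952 to 10684) and 3323 (2318 to 5610). Genes detected per cell had medians of 1657 in positive and 1436 in negative cells on plate 2, and 969 and 936 on plate 4. The ranges overlapped widely on both plates. All comparisons below therefore use rates, the UMIs of a gene over all UMIs of the cells of a side, compared within each plate and joined over both, and they were repeated with depth-matched cells and with every cell thinned to 2000 UMIs. Matching paired each of the 36 positive cells with a negative cell, and the matched medians were 7997 and 8161 UMIs on plate 2 and 3660 and 3611 on plate 4. All positive cells were kept, so the deepest on each plate had no negative cell of like depth. Positive cells reached 33325 UMIs on plate 2 and 10684 on plate 4, negative cells 15428 and 5610.

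More positive cells were low in pvalb8, the most abundant transcript of these cells by far. The gene took under 20% of UMIs in 15 of 36 positive cells (41.7%, 25.5 to 59.2) and in 11 of 54 negative cells (20.4%, 10.6 to 33.5). Ribosomal protein genes took over 5% of UMIs in 12 of 36 positive (33.3%, 18.6 to 50.97) and 7 of 54 negative cells (12.96%, 5.37 to 24.9). The medians moved little: pvalb8 stood at 20.99% in positive and 22.8% in negative cells on plate 2 and at 22.2% and 23.4% on plate 4, and the ribosomal share at 4.46% and 3.64%, then 3.28% and 3.11%. A tail of cells low in pvalb8 and high in ribosomal transcripts was thus larger among positive cells. Turned round, 15 of 26 wild-type cells low in pvalb8 were positive and 21 of the other 64, while their emx2 levels were 94.97 CPM (57.2 to 148) and 77.05 CPM (50.3 to 113). On plate 2 the cells low in pvalb8 had a median of 9737 UMIs and the others 6007, and 7 of 13 and 10 of 33 were positive. On plate 4 the medians were 3344 and 3594 UMIs, and 8 of 13 and 11 of 31 were positive. The cells low in pvalb8 were thus the deeper ones on plate 2 alone. Among mutant-labelled cells, 5 of 14 low in pvalb8 and 34 of the other 78 were positive.

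A single cell weighs on the positive side. The deepest wild-type cell, on plate 2, had 33325 UMIs with 1 emx2 UMI and supplied 13.3% of all UMIs of the positive cells and 20.3% of those on its plate. Its pvalb8 share was 16.3% and its ribosomal share 7.34%. Where a value rests on it, the value without it is given.

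**Figure D2:**
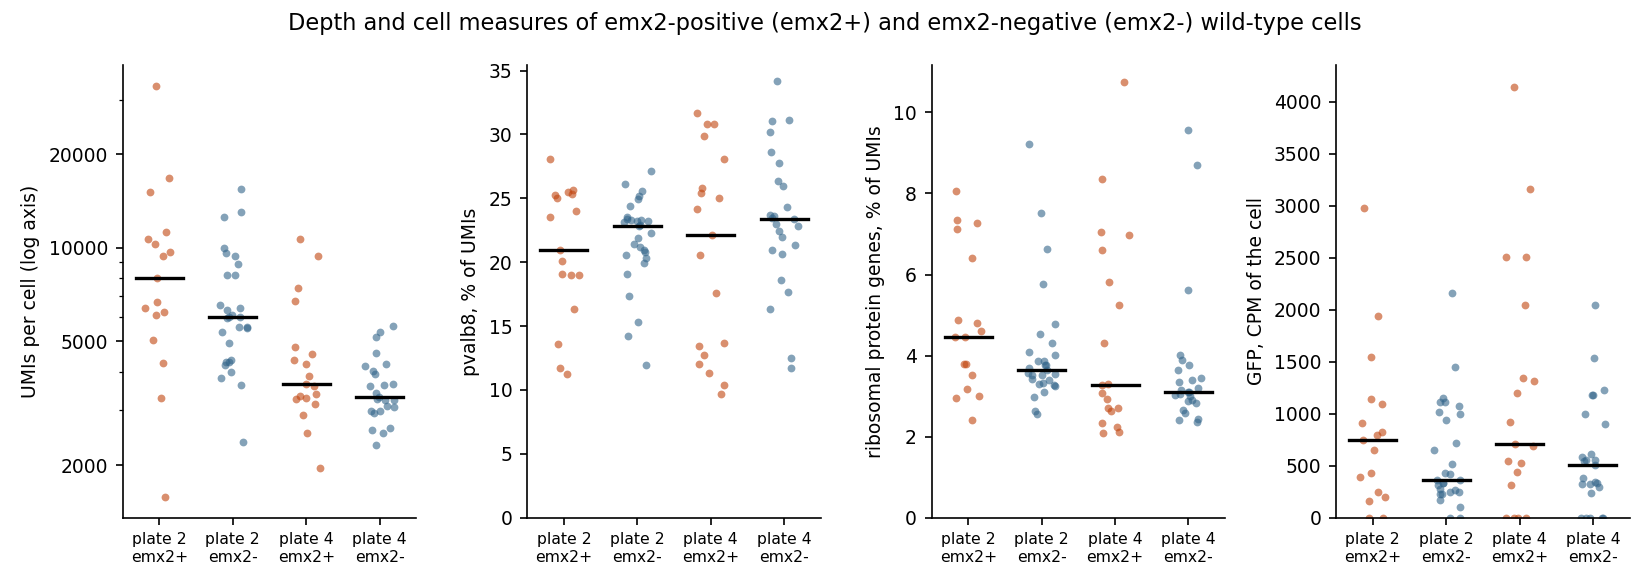
Depth (log axis), pvalb8 share, ribosomal protein share and reporter GFP level of each wild-type cell, for emx2-positive (orange) and emx2-negative cells (blue) of plates 2 and 4; bars are medians. The groups overlap in every measure, with more positive cells below 20% pvalb8 (15 of 36 against 11 of 54) and above 5% ribosomal (12 of 36 against 7 of 54).

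The reporter and its driver gene were both higher in emx2-positive cells. GFP had 261 UMIs in the positive and 180 in the negative cells, with per-cell medians of 730 CPM (0 to 4144) and 400.1 CPM (0 to 2163). The ratio of the rates, positive over negative, was 1.64 (1.35 to 1.996), at 1.45 and 2.06 on plates 2 and 4. Without cells low in pvalb8 it was 0.931, and the part of those cells in the GFP difference was not tested. The unconventional myosin gene myo6b, listed as MYO6 (ENSDARG00000042141), had 127 UMIs in 32 of 36 positive cells and 83 UMIs in 35 of 54 negative cells. Its ratio was 1.74 (1.31 to 2.32), 1.602 and 2.06 on plates 2 and 4, and 1.42 without cells low in pvalb8. In mutant-labelled cells the ratios were 1.37 (1.08 to 1.74) for GFP and 0.859 (0.671 to 1.095) for MYO6. The myosin gene thus did not lie on the same side there, where 47.9% of all genes did. The abundant calcium buffers were near 1, at 0.896 (0.886 to 0.907) for pvalb8, 0.908 (0.825 to 0.9998) for s100s and 1.04 (1.01 to 1.06) for s100t.

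Across the transcriptome, ratios scattered evenly on both sides of 1. Of 4420 genes with at least 10 UMIs, emx2 left out, the log2 ratio was above 0 for 51% and its median was 0.023. A ratio of at least 2 was reached by 16% and a ratio of at most 1/2 by 16% of genes. Of 4062 genes with a UMI on each plate, 50.2% lay on the same side of 1 on plate 2 and plate 4. Between wild-type and mutant-labelled cells, 47.9% of 3637 genes lay on the same side. Plates and genotypes thus shared the side of a gene about as often as not.

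A rule of size and steadiness then picked genes to name. It asked for 20 UMIs and detection in 20% of cells on the high side, a ratio of at least 2, the same side on each plate, in depth-matched and in thinned cells, and a ratio of at least 1.5 without the single cell highest in that gene. It passed 113 genes as higher and 120 as lower in emx2-positive cells, 6.55% and 6.96% of the 1725 genes with enough UMIs and cells. In mutant-labelled cells, 108 of 232 such genes (46.6%) lay on the same side, close to the 47.9% of all genes. Relative to the other wild-type cells, 90 of the 113 higher genes also had a higher rate in cells low in pvalb8, against 51.7% of all genes tested, and 24 of the 120 lower genes did. Both splits share cells, as 15 of the 26 cells low in pvalb8 were positive and 21 of the other 64. The genes were picked from those same cells, so these counts cannot show a link to pvalb8. Without the cells low in pvalb8, 81 of the 113 higher and 88 of the 120 lower genes still differed by 2-fold or more, and the whole rule passed 41 genes as higher and 112 as lower. How far the larger tail of such cells contributes to the differences was not tested.

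Among the 12 higher genes ranked first, caskb, which encodes a membrane scaffold kinase of the MAGUK family, had 32 UMIs in 15 of 36 positive cells and 5 UMIs in 5 of 54 negative cells. Its ratio was 7.48 (2.89 to 24.6), at 8.08 and 5.14 on plates 2 and 4. EXT2, a glycosyltransferase gene of heparan sulfate synthesis, had 22 UMIs in 10 cells and 3 UMIs in 3 cells (8.47, 2.54 to 44.2). Its ratio was 5.07 without the positive cell that held 9 of the 22. These genes were not detected in most cells of either group at their depth. The most abundant gene picked was si:dkey-229d11.5, with 799 UMIs in 34 of 36 positive cells and 313 UMIs in 50 of 54 negative cells. Its per-cell medians were 1026 CPM (0 to 35820) and 777 CPM (0 to 4205), and its ratio was 2.88 (2.52 to 3.29), or 2.096 without the positive cell that held 242 of the UMIs, and 1.83 without cells low in pvalb8. That cell lay far above every other, and the bulk of both groups overlapped.

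The mitochondrial import channel gene timm23a had 40 UMIs in 13 positive and 9 UMIs in 9 negative cells (5.12, 2.44 to 11.99). Its ratio was 3.77 without the positive cell that held 12 of the 40. The mitochondrial ribosome gene MRPL32 had 37 UMIs in 13 cells and 10 in 10 cells (4.37, 2.13 to 9.86), but 2 UMIs on each side on plate 4, a ratio of 1.03. The RNA helicase gene DDX39A had 44 and 11 UMIs (4.65, 2.36 to 9.98), and the RNase P subunit gene POP7 21 and 3 (7.88, 2.35 to 41.3). Further genes were scaf11 at 4.71 (2.13 to 11.8), ZFAND3 at 8.08 (2.41 to 42.3) and the early growth response gene egr4 at 3.70 (2.11 to 6.82), which had 2 UMIs on each side on plate 4. Of the 53 positive-side UMIs of egr4, 23 lay in 1 cell, and without that cell its ratio was 2.23. A pair of keratin genes completed the set and leaned on the deepest cell. It held 25 of 41 positive-side UMIs of krt1-19e, whose ratio was 6.06 (2.80 to 14.97) with it and 2.83 without, and 42 of 62 of krt91, at 4.35 (2.51 to 7.93) and 1.73. On plate 4, krt1-19e had 3 and 1 UMIs and krt91 had 1 UMI on each side, a ratio of 1.03. Of these 12 genes, 4 were also higher in emx2-positive mutant-labelled cells, with MRPL32 at 2.1997 (0.983 to 5.16) the highest of them. When the sides were set by emx2 in cells thinned to 2000 UMIs, which left 13 positive cells, the ratios of caskb, si:dkey-229d11.5, krt91, scaf11 and egr4 fell below 1. With the cells low in pvalb8 left out, POP7 was at 2.27, scaf11 at 2.52, egr4 at 2.12, ZFAND3 at 5.42, krt1-19e at 3.39, krt91 at 2.51 and MRPL32 at 3.26. Without cells low in pvalb8, caskb was at 10.1, EXT2 at 11.5, timm23a at 5.80 and DDX39A at 4.48.

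Of the 12 lower genes ranked first, HSDL1, of the hydroxysteroid dehydrogenase-like family, had 4 UMIs in 4 of 36 positive cells and 35 UMIs in 17 of 54 negative cells (0.132, 0.0342 to 0.370). PITPNA, a phosphatidylinositol transfer protein gene, had 6 and 39 UMIs (0.176, 0.0610 to 0.420). The mitochondrial malic enzyme gene ME3 had 2 and 21 UMIs (0.110, 0.0125 to 0.450), and the acyl-CoA synthetase gene ACSL3 3 and 25 (0.140, 0.0271 to 0.460). Each was detected in at most 6 positive cells, so the size of these ratios is loosely fixed. On plate 4, ME3 had 1 and 4 UMIs and ACSL3 had 1 and 3. HIGD2A, an assembly factor of respiratory complexes, stood at 13 and 51 UMIs (0.292, 0.146 to 0.545). ARL6IP5, a membrane protein gene of the endoplasmic reticulum, was the most abundant of the 12, with 18 UMIs in 10 cells and 71 UMIs in 26 cells (0.289, 0.162 to 0.491).

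The centrin gene cetn4 had 8 UMIs in 7 positive and 37 in 20 negative cells (0.248, 0.0998 to 0.541). CFAP96 had 11 and 47 (0.276, 0.129 to 0.539), and ARMC2, which takes part in building the sperm axoneme in mice, 5 and 29 (0.202, 0.0609 to 0.527). DLX3, a distal-less homeobox gene, had 15 UMIs in 10 positive and 57 UMIs in 25 negative cells (0.301, 0.158 to 0.540). With each cell weighted alike DLX3 was at 0.592, outside that interval. HBP1, an HMG-box repressor gene, had 7 and 40 (0.207, 0.0781 to 0.466). On plate 4, ARMC2 had 2 and 3 UMIs (0.685), CFAP96 had 0 and 6, and HBP1 had 0 and 4. The unnamed gene ENSDARG00000109678 had 3 and 21 (0.162, 0.0310 to 0.543). In mutant-labelled cells 5 of the 12 were lower on the emx2-positive side, HSDL1 (0.371, 0.108 to 1.04) and ENSDARG00000109678 (0.320, 0.0939 to 0.880) the furthest, while the other 7 lay above 1. Of these ACSL3 was the furthest at 2.77 (0.963 to 9.01), followed by ME3 at 1.81, HBP1 at 1.67 and cetn4 at 1.58, and DLX3 was at 1.15 (0.780 to 1.68).

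**Figure D3:**
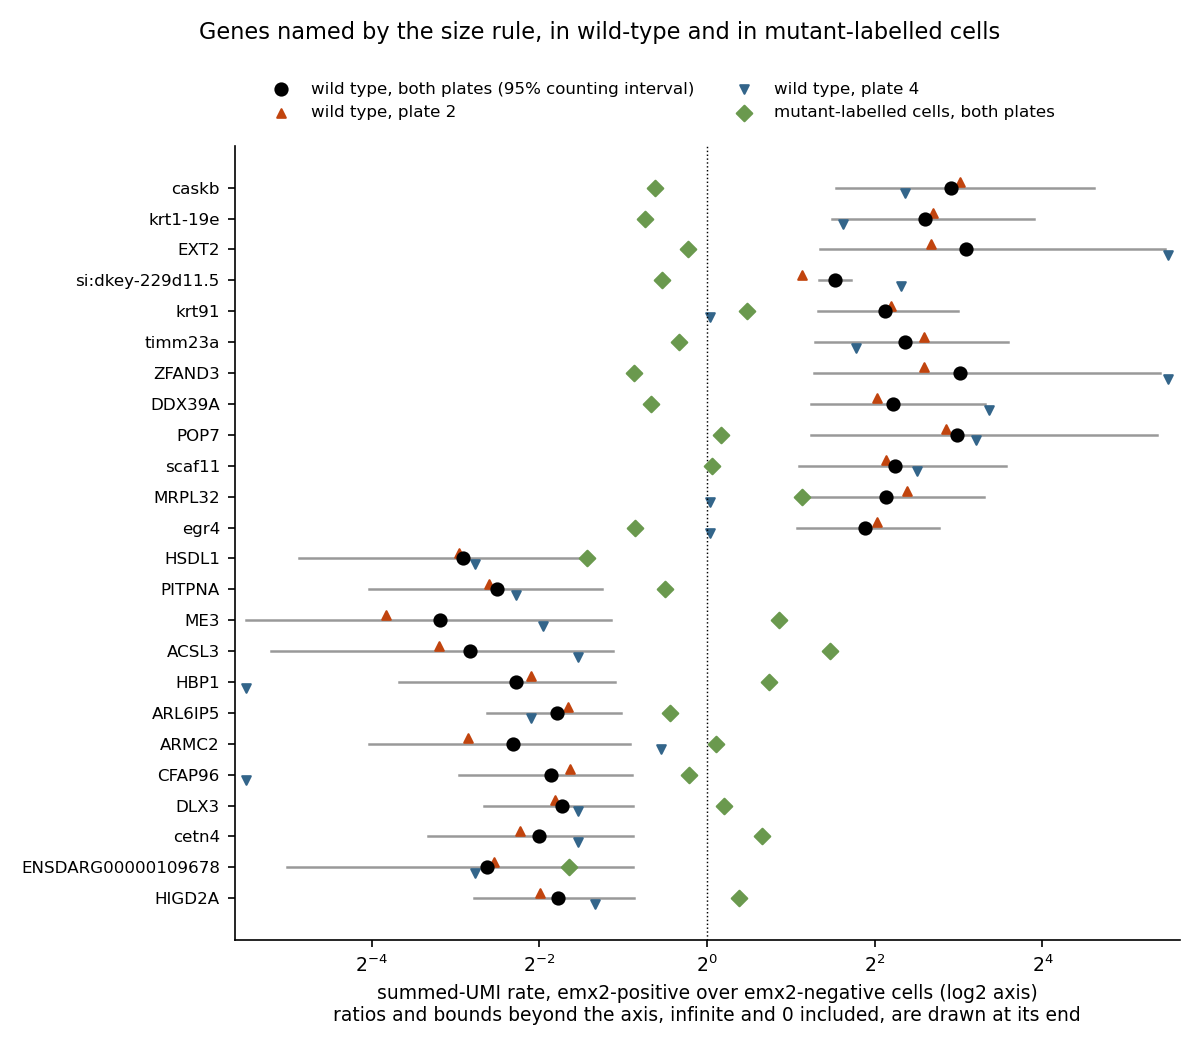
Ratio of the summed-UMI rate in emx2-positive over emx2-negative cells (log2 axis) for the 24 genes named by the size rule. Black points with counting intervals are wild-type cells of both plates, triangles the single plates, and green diamonds mutant-labelled cells. The wild-type points stand away from 1 by the rule that chose them, and the mutant-labelled points fall on both sides of 1, on the same side for 9 of 24 genes.

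**Figure D4:**
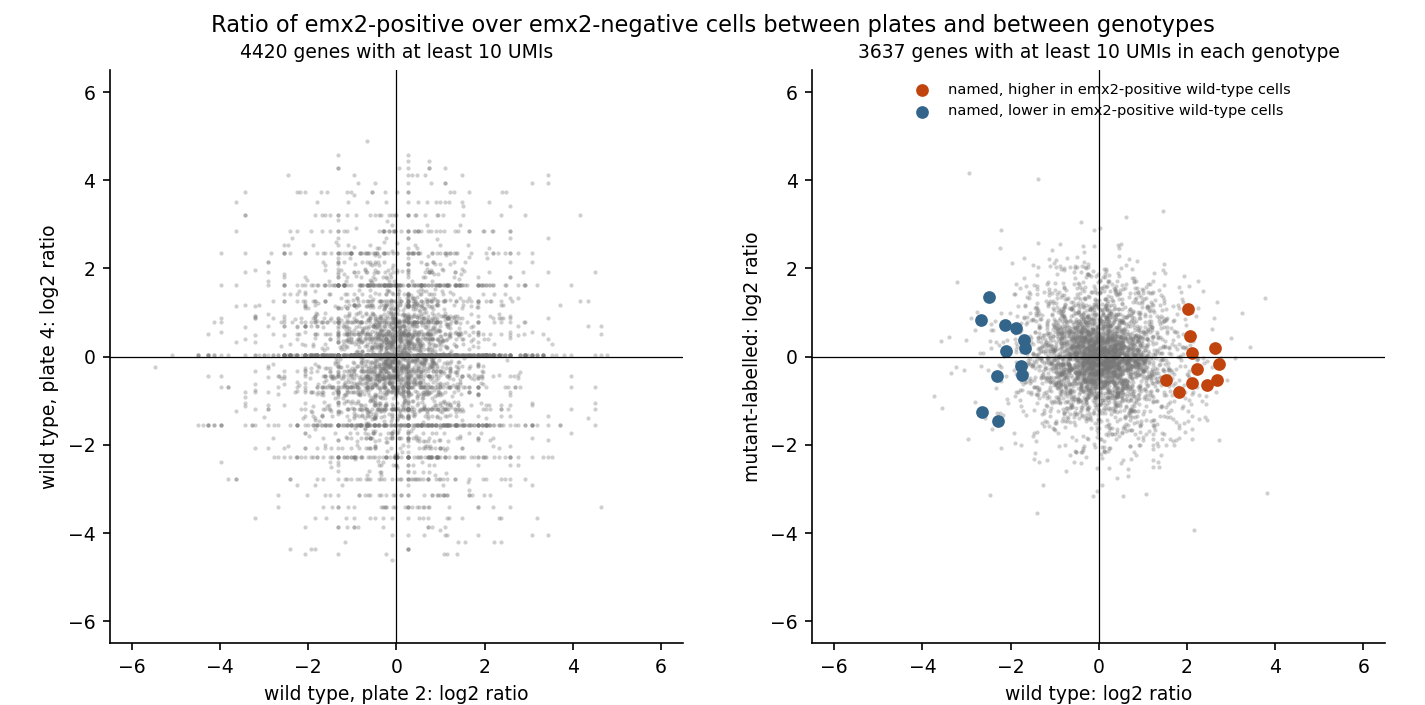
Each point is a gene, placed by its log2 ratio of emx2-positive over emx2-negative cells. The left panel sets wild-type plate 4 against plate 2 (with 0.5 UMI added on each side), the right panel mutant-labelled against wild-type cells with the named genes coloured. The clouds show no slant: 50.2% of genes lie on the same side on both plates and 47.9% in both genotypes.

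Few genes kept a difference of 1.5-fold through both plates of both genotypes. Among 2202 genes with 20 UMIs in each genotype, 13 were at 1.5 or more (0.590%) and 14 at 1/1.5 or less (0.636%) in all 4 comparisons. Without a limit of size, 5.45% lay above 1 and 7.31% below 1 in all 4. Here the mutant-labelled cells took part in the choice, so their values are a description too. Examples, chosen after their values were seen, are csnk2a2a, a casein kinase catalytic subunit gene, and the growth regulator gene MYC on the higher side. The first had 34 and 9 UMIs in wild-type cells (4.46, 2.09 to 10.6) and 28 and 12 in mutant-labelled cells (3.18, 1.57 to 6.87). MYC had 29 and 16 (2.04, 1.07 to 4.03) and then 21 and 12 (2.27, 1.07 to 5.07). On the lower side, MAF1, a repressor gene of RNA polymerase III, had 34 and 77 (0.4997, 0.323 to 0.757) and then 24 and 94 (0.342, 0.209 to 0.541). None of these 3 belongs to the Notch or planar polarity lists.

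Notch ligand genes were detected on both sides of the split, and their ratios lay above 1 with intervals that reached it. The deltaD gene DLD had 62 UMIs in 20 of 36 positive cells and 61 UMIs in 29 of 54 negative cells, with per-cell medians of 127 CPM (0 to 952) and 138 CPM (0 to 1204). Its ratio was 1.16 (0.800 to 1.68). The jag2b gene had 35 UMIs in 15 cells and 27 in 14 cells (1.51, 0.890 to 2.601), at 1.77 and 0.685 on plates 2 and 4. The Delta-like gene dll4 had 13 and 9 UMIs (1.61, 0.638 to 4.28), again on opposite sides on the plates at 3.59 and 0.685. The 7 ligand genes in the table summed to 117 and 103 UMIs, a ratio of 1.303 (0.991 to 1.72), and to 113 and 120 UMIs in mutant-labelled cells (1.28, 0.979 to 1.67).

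Detection of the ligands was also compared at a common depth. After thinning to 2000 UMIs, which left 34 positive and 54 negative cells, DLD had a UMI in 10 of 34 positive cells (29.4%, 15.098 to 47.5) and 18 of 54 negative cells (33.3%, 21.1 to 47.5). The shares were 20.6% (8.70 to 37.9) and 16.7% (7.92 to 29.3) for jag2b and 11.8% (3.30 to 27.5) and 7.41% (2.06 to 17.9) for dll4. All 3 pairs of intervals overlap. The jag2b shares were 16.7% (6.37 to 32.8) and 1.85% (0.0469 to 9.89) at 1000 UMIs and 50% (26.02 to 73.98) and 26.1% (10.23 to 48.4) at 5000, larger gaps whose intervals overlap too. Receptor genes were almost unseen, with 1 UMI on each side over the 3 rows of NOTCH1 and NOTCH3.

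Among Notch target genes, the her4 copies are near-identical repressor genes that lie in a cluster, and the counting could split reads between them, so single copies are uncertain. The copy her4.1 had 16 UMIs in 6 of 36 positive cells and 2 UMIs in 2 of 54 negative cells, all on plate 2 (9.57, 2.25 to 85.8). Without cells low in pvalb8 its ratio was 1.89, and in mutant-labelled cells 1.07 (0.211 to 4.96). The other measured copies were closer to 1, her4.2 with 14 and 13 UMIs (1.15, 0.502 to 2.66) and her4.5 with 8 and 11 (0.759, 0.265 to 2.07). The 4 copies together had 40 UMIs in 18 positive and 33 UMIs in 12 negative cells (1.33, 0.817 to 2.18). Their ratio was 4.103 on plate 2 and 0.632 on plate 4, so the plates lay on opposite sides.

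The repressor genes her15.1, with 11 and 4 UMIs (3.16, 0.937 to 13.6), and HEY1, with 5 and 5 (1.04, 0.240 to 4.53), were sparser still. Over all 13 target genes the sums were 67 UMIs in 24 of 36 positive and 54 UMIs in 25 of 54 negative cells (1.37, 0.941 to 1.99), at 3.87 and 0.627 on plates 2 and 4. In mutant-labelled cells that ratio was 1.08 (0.800 to 1.44). The protease gene adam10a, which cleaves activated Notch receptors, had 8 and 8 UMIs (1.12, 0.366 to 3.42). The remaining 25 of the 34 Notch pathway genes had under 10 UMIs each, among them LFNG, a modifier of Notch receptors, with 3 and 2.

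The Notch list as a whole had 8 of 9 measured members above 1, where 51% of all genes were. On both plates 2 of the 9 were above 1 and 0 below, where 23.6% and 22.6% of all genes were. The 9 include 3 her4 copies, between which reads could be split. Its median log2 ratio was 0.21 (0.08 to 1.46), at 0.81 and -0.24 on plates 2 and 4. The interval of a list's median reflects the spread of its members, which share the same cells, and is a description. Among the 12 measured members in mutant-labelled cells the median was 0.37. Of the 9, DLD and jag2b alone had the 20 UMIs on a side that the size rule asks for, and neither passed it, where 6.55% of eligible genes passed as higher and 6.96% as lower.

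In the planar polarity and bundle orientation list, the kinase gene PAK1, which acts downstream of Rac and Cdc42, was the member that passed the size rule. The rule thus passed 1 of the 10 measured members as higher and 0 as lower, where it passed 113 and 120 of all 4420 measured genes. Those are 6.55% and 6.96% of the 1725 eligible genes. Of the 10, PAK1 and the G protein gene gnai1 alone had the 20 UMIs on a side that the rule asks for. PAK1 had 40 UMIs in 20 of 36 positive cells and 22 UMIs in 12 of 54 negative cells. The per-cell medians were 77.4 CPM (0 to 1184) and 0 CPM (0 to 835). The ratio was 2.05 (1.19 to 3.63), at 2.30 and 1.71 on plates 2 and 4, and 2.43 without cells low in pvalb8. After thinning to 2000 UMIs, PAK1 had a UMI in 14 of 34 positive cells (41.2%, 24.6 to 59.3) and 6 of 54 negative cells (11.1%, 4.19 to 22.6). The size rule had already asked for a higher rate in these thinned cells, so that gap is a description of the choice. Its intervals do not overlap, but the ones at other depths do. The shares were 22.2% (10.1 to 39.2) and 7.41% (2.06 to 17.9) at 1000 UMIs and 44.4% (21.5 to 69.2) and 26.1% (10.23 to 48.4) at 5000. The difference was not seen in mutant-labelled cells, where 19 and 24 UMIs gave 1.06 (0.548 to 2.02).

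The inhibitory G protein gene gnai1, of a family that takes part in orienting hair bundles, had 32 UMIs in 17 positive cells and 53 UMIs in 23 negative cells (0.697, 0.435 to 1.101), against 52 and 35 in mutant-labelled cells (1.997, 1.28 to 3.16). Its wild-type ratio was 0.431 without cells low in pvalb8. Its ratio thus lay below 1 in wild type, with an interval that reached 1, and above 1 in mutant-labelled cells. The share of all genes on the same side in both genotypes was 47.9%.

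Core planar polarity genes were too sparse to compare: VANGL2 had 6 and 6 UMIs (1.08, 0.289 to 4.05), PRICKLE1 (ENSDARG00000045694) 11 and 9 (1.45, 0.547 to 3.96), and PRICKLE2 8 and 5 (1.81, 0.521 to 7.03). All 12 core genes together had 26 and 31 UMIs (0.946, 0.539 to 1.65). The polarity regulator genes CCDC88C, pard6a, INTU and PAK2 had between 10 and 18 UMIs over both sides, at 0.475, 1.42, 0.872 and 2.39, and each interval spanned 1. Of the 10 measured members 7 were above 1, where 51% of all genes were. On both plates 3 were above 1 and 1 below, where 23.6% and 22.6% of all genes were. The median log2 ratio was 0.49 (-0.51 to 1.01), 0.73 on plate 2 and 0.04 on plate 4. The 11 measured in mutant-labelled cells had a median of 0.23. With no minimum of UMIs per gene, the wild-type median was -0.50, so its side depends on the sparse members.

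Of 26 measured hair cell and other transcription factor genes, 15 were above 1, and the median log2 ratio was 0.09 (-0.21 to 0.31). On both plates 4 were above 1 and 8 below, where 23.6% and 22.6% of all genes were. The size rule passed 0 of the 26 as higher and 3 as lower, where it passed 113 and 120 of all 4420 measured genes. Those are 6.55% and 6.96% of the 1725 eligible genes. The most abundant were near 1: gfi1aa had 99 and 142 UMIs (0.782, 0.599 to 1.02), POU4F1 79 and 99 (0.893, 0.656 to 1.21) and EYA1 76 and 94 (0.927, 0.676 to 1.27). Larger ratios came from sparse genes. The LIM homeobox gene LHX4 had 16 UMIs in 9 positive and 4 UMIs in 4 negative cells (4.24, 1.37 to 17.4), at 3.59 and 4.45 on the plates and 2.99 (1.16 to 8.59) in mutant-labelled cells. PAX2, an otic paired-box gene, had 17 UMIs in 10 cells and 3 in 3 cells (6.54, 1.89 to 34.8), but 1.80 without cells low in pvalb8. The homeobox gene dlx4b had 1 UMI in positive cells and 21 UMIs in 6 negative cells, 12 of them in 1 cell (0.0562, 0.00136 to 0.349). LHX4 lay above 1 on both wild-type plates, where 23.6% of all genes did, and in mutant-labelled cells, at low counts throughout. Between the genotypes, 47.9% of genes lay on the same side.

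Genes of the mechanosensory bundle were split, with 16 of 33 above 1 and a median log2 ratio of -0.01 (-0.32 to 0.33). The transduction complex gene tmie had 38 UMIs in 11 positive and 14 UMIs in 8 negative cells (3.11, 1.65 to 6.22), and the bundle myosin gene MYO7A (ENSDARG00000099871) 31 UMIs in 12 cells and 11 UMIs in 11 cells (3.21, 1.57 to 7.08). Both passed the size rule, and their ratios were 3.04 and 4.17 without cells low in pvalb8. The rule passed these 2 of the 33 as higher and 0 as lower, where it passed 113 and 120 of all 4420 measured genes. Those are 6.55% and 6.96% of the 1725 eligible genes. In mutant-labelled cells they were at 0.797 (0.391 to 1.57) and 0.714 (0.296 to 1.61). TWF2 (ENSDARG00000009727), an actin-capping gene, had 168 and 261 UMIs (0.727, 0.595 to 0.886), and the actin genes actb1 and actb2 stood at 0.859 (0.723 to 1.02) and 1.26 (1.07 to 1.47).

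Synapse genes had 8 of 19 members above 1 and a median log2 ratio of -0.03 (-0.28 to 0.34). The calmodulin gene calm2a was at 1.54 (1.24 to 1.91), with 53 of 199 positive-side UMIs in 1 cell, and at 0.901 without cells low in pvalb8. Ion channel and transporter genes had 10 of 15 above 1 with a median of 0.44 (-0.17 to 0.95), or 0.08 without cells low in pvalb8. Of the sodium pump genes, atp1a3b was at 1.45 (1.09 to 1.92) and ATP1B1 (ENSDARG00000013144) at 0.839 (0.707 to 0.994). These lists straddled the all-gene median of 0.02.

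Among cilium genes, 19 of 43 were above 1 and the median log2 ratio was -0.16 (-0.36 to 0.20). The alpha-tubulin gene TUBA1A had 263 UMIs in 32 of 36 positive cells and 123 UMIs in 38 of 54 negative cells, with per-cell medians of 640 CPM (0 to 2689) and 350.1 CPM (0 to 1948). Its ratio was 2.45 (1.97 to 3.07), at 2.34 and 2.80 on plates 2 and 4. A second alpha-tubulin gene, tuba1c, from the list of young hair cell genes, had 177 and 93 UMIs (2.18, 1.69 to 2.84). Without cells low in pvalb8 the ratios were 1.93 and 1.69, and in mutant-labelled cells 0.773 (0.585 to 1.02) and 0.733 (0.511 to 1.04). On plates 2 and 4 tuba1c stood at 2.37 and 1.76. Both genes thus lay above 1 on each wild-type plate and below 1 in mutant-labelled cells. Of all genes, 23.6% lay above 1 on both wild-type plates, and 47.9% lay on the same side in both genotypes. SPATA18, a mitochondrial quality-control gene kept in that list, had 18 and 47 UMIs (0.439, 0.240 to 0.770).

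Young hair cell genes had 7 of 12 above 1 and a median log2 ratio of 0.22 (-0.46 to 0.47). CDKN1B, a cyclin-dependent kinase inhibitor gene, was lower at 27 and 61 UMIs (0.497, 0.304 to 0.794), and 0.653 in mutant-labelled cells. The chromatin gene hmgb2b, with 60 and 58 UMIs, was at 1.18 (0.805 to 1.72). Support cell genes had 4 of 7 above 1, with a median of 0.18 (-1.24 to 1.53). The tight-junction gene cldnb had 99 UMIs in 22 of 36 positive cells and 38 UMIs in 21 of 54 negative cells (2.93, 1.996 to 4.38), with 3.59 and 2.23 on the plates, 2.07 without cells low in pvalb8, and 0.649 (0.427 to 0.972) in mutant-labelled cells. A glutamine synthetase gene, GLUL (ENSDARG00000099776), had 34 and 13 UMIs (2.99, 1.54 to 6.18), and the LIM homeobox gene ISL1 11 and 31 (0.400, 0.181 to 0.818). The epithelial adhesion gene epcam, seen in all 36 positive and 49 of 54 negative cells, was at 0.996 (0.824 to 1.203).

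Epidermal genes had 8 of 10 above 1, where 51% of all genes were. Their median, 0.95 (-0.00 to 1.92), was the highest of the lists with at least 7 measured members. It was 0.90 on plate 2 but 0.04 on plate 4. On both plates 6 of the 10 were above 1 and 0 below, where 23.6% and 22.6% of all genes were. The list summed to 584 UMIs in positive and 513 UMIs in negative cells, with per-cell sums of 345 to 4591 CPM and 490.1 to 4159 CPM. Of the 584, 153 came from the deepest cell, and without it the median was 0.51. Without cells low in pvalb8 the median was 0.34, and in mutant-labelled cells it was 0.05, with 4 of 8 members above 1. The abundant krt5, with 294 and 336 UMIs, was at 0.997 (0.849 to 1.17), krt8 at 1.63 (1.16 to 2.29) and the desmosome gene PKP1 at 4.32 (1.57 to 14.7). The basal keratinocyte factor gene TP63 was at 0, as stated above. Muscle genes had 1 of 10 above 1, where 51% of all genes were, with a median of -0.46 (-1.82 to -0.10). That median was -0.86 and -0.03 on plates 2 and 4, and 0.07 in mutant-labelled cells. On both plates 0 of the 10 were above 1 and 2 below, where 23.6% and 22.6% of all genes were. The muscle list summed to 504 and 675 UMIs, with per-cell sums of 439 to 7795 CPM and 0 to 8355 CPM, with 318 and 381 of them from the calcium pump gene atp2a1 at 0.934 (0.802 to 1.09).

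Ribosomal protein genes lay mostly above 1 in emx2-positive cells, by small amounts. Of 80 genes, 67 were above 1, 13 were below it and 49 were above 1 on both plates, where 23.6% of all genes were. The median log2 ratio was 0.35 (0.22 to 0.41), with RPS24 at 78 and 28 UMIs (3.196, 2.05 to 5.12) among the largest. The summed list had 12522 UMIs in positive and 11607 in negative cells (1.23, 1.202 to 1.26). Without cells low in pvalb8 the median was 0.07, and in mutant-labelled cells it was -0.07. With the sides set by emx2 in cells thinned to 2000 UMIs it was -0.29, and in thinned cells with the sides kept 0.40. The log2 ratios of the members ran from -0.79 to 2.70. Of the 80, 3 passed the size rule, all as higher, where it passed 113 of all 4420 measured genes as higher. Those are 6.55% of the 1725 eligible genes. The part of the cells low in pvalb8 in the wild-type elevation was not tested. Nuclear oxidative phosphorylation genes stayed at the all-gene level, with 38 of 81 above 1 and a median of -0.04 (-0.13 to 0.06). Genes of the mitochondrial genome had 3 of 12 above 1 and a median of -0.18 (-0.33 to 0.09), with 0.03 without cells low in pvalb8.

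**Figure D5:**
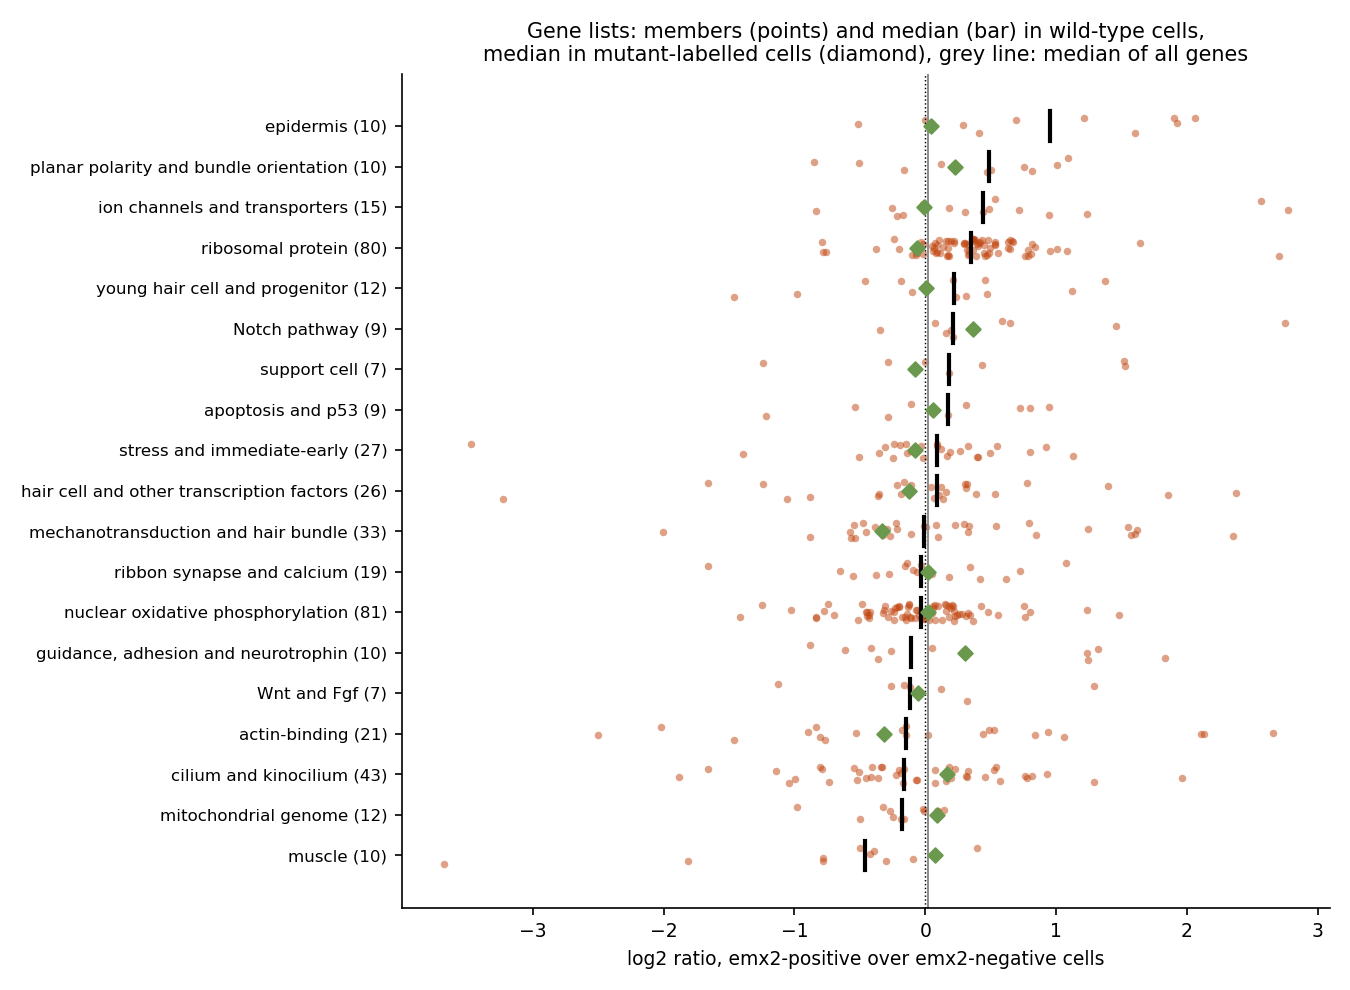
Log2 ratio of emx2-positive over emx2-negative wild-type cells for the members of each list with at least 7 measured genes (points; number in brackets), with the list's median (black bar), its median in mutant-labelled cells (green diamond) and the median of all genes (grey line). Members spread to both sides in nearly every list; most ribosomal protein genes, 67 of 80, lie to the right of 0 in wild type, while that list's median in mutant-labelled cells is -0.07.

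Genes of signalling to nerve fibres and of the stress response included some lower ones. The neurotrophin gene BDNF, which hair cells make for their afferent neurons, had 134 UMIs in 29 of 36 positive cells and 234 UMIs in 49 of 54 negative cells, with per-cell medians of 503 CPM (0 to 2456) and 670.0 CPM (0 to 2794). Its ratio was 0.650 (0.522 to 0.808), at 0.632 and 0.685 on plates 2 and 4, 0.768 without cells low in pvalb8, and 1.21 (0.985 to 1.49) in mutant-labelled cells. The phosphatase gene DUSP1, an immediate-early brake on MAP kinases, had 31 UMIs in 19 cells and 94 UMIs in 33 cells (0.373, 0.240 to 0.565), and 76 and 49 UMIs in mutant-labelled cells (2.06, 1.42 to 3.01). BDNF and DUSP1 thus lay on opposite sides of 1 in the 2 genotypes, where 47.9% of all genes lay on the same side. The abundant stress genes HSPA8 at 0.900 (0.810 to 1.0004), hsp70.1 (ENSDARG00000029688) at 0.847 (0.729 to 0.983) and JUN at 1.06 (0.938 to 1.21) were close to 1.

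The remaining lists spread around 1. Stress and immediate-early genes had 14 of 27 members above it, guidance and adhesion genes 5 of 10, Wnt and Fgf genes 3 of 7, actin-binding genes 10 of 21 and apoptosis genes 5 of 9. Within them the actin-severing gene CFL1 was at 0.555 (0.412 to 0.744) and the myosin light chain gene myl12.1 at 0.566 (0.396 to 0.799), both lower on each plate. The Fgf ligand gene FGF10 (ENSDARG00000100475) was at 0.920 (0.712 to 1.19). The neuron, ionocyte and cell cycle lists had 1 measured member each.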

How the data were processed

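UMI counts per gene come from single sorted hair cells processed by mcSCRB-seq, per the labels' protocols. The authors deposited whole-number UMI counts without normalization. Per the submitters' processing notes, STAR 2.6.0a and the build GRCz11 were used. For the counting step no source used here names a tool or an annotation. ERCC spike-ins (54 rows, 5.15% of UMIs) were kept apart from all totals. Symbols came from a gene name table that matched 11707 of 12354 gene IDs, many in the human style. Genotype came from the labels and plate was read from the first digit of the well code.

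Cells with under 1000 UMIs were left out. UMIs were summed per side and plate, and the ratio positive over negative is the conditional maximum likelihood estimate with plate as stratum, with an exact conditional 95% interval. Intervals of shares are exact binomial and of CPM exact Poisson, all for counting error only, so cells that vary more than Poisson are not covered. A log2 ratio adds 0.5 UMI to each side of each plate. Members with at least 10 UMIs over both sides count as measured, and a list's median has a binomial order-statistic interval over its members. Genes were named by the size rule (12 a side, ranked by the interval bound nearest 1), as up to 3 most abundant and 3 largest ratios of each list, and as Notch and planar polarity members. The members and the 25 lists were chosen with earlier results of these data known. Summed depths were 251405 UMIs in positive and 286107 in negative wild-type cells, and 233427 and 311937 in mutant-labelled ones. With 1 sample there was no test. A member of the planar polarity list is not reported here by name. Alternatives changed cell and gene minimums, scaling (edgeR 4.0.16 TMM, DESeq2 1.42.0 size factors, used for scaling only), weighting, depth, plates and cells kept. The steps were tested on simulated data. Scripts ran in R 4.3.3 and in Python 3.11.15 with matplotlib 3.10.9, scipy 1.17.1, pandas 2.3.3 and numpy 2.4.6.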

Additional observations from a re-analysis of the deposited data

How the results depend on the processing

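The counts of genes passing the size rule, 113 higher and 120 lower, were within 1.5 times under the other alternatives but moved under these. With cells thinned to 2000 UMIs before every step they were 19 and 29. With the sides also taken from the thinned cells, which left 13 of 88 cells positive, 1 of them on plate 2, 3 genes were higher and 145 lower. Positive cells that had lost their emx2 UMIs to thinning counted as negative there. With positive cells defined by at least 2 emx2 UMIs, 7 cells in all, the counts were 26 and 244, on plate 4 alone 57 and 44, and with a ratio of 1.5 in place of 2, 216 and 219. Without cells low in pvalb8, 41 genes were higher.

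Sides from thinned cells turned the ribosomal protein median to -0.29 and the ratios of caskb to 0.883, si:dkey-229d11.5 to 0.247, krt91 to 0, scaf11 to 0, egr4 to 0.883 and ARMC2 to 1.38, and gave 0.12 for oxidative phosphorylation. No other alternative turned a ratio of the 24 genes of the size rule, but the rule fixed much of this in advance. It had asked for the same side on each plate, in depth-matched and in thinned cells. List medians changed sign more often, though not under TMM, DESeq2 factors or totals without mitochondrial and ribosomal genes. The planar polarity median was -0.50 with no minimum of UMIs per gene and -0.13 with at least 2 emx2 UMIs, where the epidermal median was -0.08. The ribosomal median was 0.14 with at least 2 emx2 UMIs, 0.21 without the deepest cell and 0.0701 without cells low in pvalb8. The transcription factor median was -0.24 after thinning and -0.26 with sides from thinned cells. Over members with at least 10 UMIs on that plate, the Notch median was 1.70 on plate 2 and -0.45 on plate 4, and the planar polarity median 1.12 on plate 2. Thinning leaves fewer UMIs, so fewer genes reach the minimum of the size rule; the causes of the other shifts were not tested. The DLD share difference, positive minus negative, was -3.92 points at 2000, -10.2 at 1000 and 10.1 at 5000 UMIs per cell. Depth limits these data: 29 of 36 positive cells rest on 1 emx2 UMI. No paired analysis was possible because each sample is 1 cell and its replicate number gives accession order alone.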
